A study of Mus musculus with 7 samples.

Results

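Clustered histone genes encode the bulk of the histone proteins that cells need when they copy their DNA. The genes described here are the 68 of 22564 genes in the deposited table of liver transcripts whose symbol starts with Hist1h, Hist2h, Hist3h or Hist4h. There are 6 genes of the linker histone H1 and, of the core histones, 19 of H2A, 18 of H2B, 12 of H3 and 13 of H4. They were chosen by symbol, with results of the comparison of PTH with PBS livers already known. Their values in that comparison are therefore given as a description, with no p-value, and where their number past a threshold is given beside that of all genes, nothing is drawn from it. The samples were C57bl/6 mouse livers in 2 groups, with 4 libraries from mice labelled PTH (parathyroid hormone, a peptide hormone that raises blood calcium) and 3 from mice labelled PBS (phosphate-buffered saline, a buffer often used as a vehicle). By its title, the series concerns signalling of the PTH receptor in liver fibrosis. No allele, transgene, age, dose or duration is named in the labels. The titles call the PBS samples C and the PTH samples C+P without explaining C, so a treatment that all 7 samples had in common is possible and is not described in them.

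DNA replication needs a matching supply of histones. The mRNAs of most clustered histone genes are made in S phase, have no introns and end in a short hairpin, the histone stem-loop, in place of a poly(A) tail. The stem-loop binding protein holds that hairpin, and the U7 small nuclear RNP cuts the RNA behind it. Some clustered histone genes also make polyadenylated transcripts in cells that have left the cell cycle. Replacement variants such as H3f3a and H3f3b lie outside the clusters, have introns and poly(A) tails and are expressed throughout the cell cycle. Hepatocytes of an adult liver rarely divide. The labels name total RNA as the starting material, and do not state how RNA was selected before sequencing.

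The hairpin is the sequence that most of these genes share and nearly all other genes lack. It was searched for in the 66 genes that have a coding transcript in GENCODE M21 (mouse build GRCm38), as a stem of 6 paired bases, GGNNNT with ANNNCC, around the loop TNTN (16 bases in all, N standing for any base), within 150 bases after the stop codon. It was found in 46 of 66 clustered histone genes (69.7%), against 50 of 21866 coding genes of the whole annotation (0.229%), a count that includes the histone genes. It stood 21 to 58 bases after the stop codon, with a median of 31 bases. The forms are shown because they split by histone type. Each is written 5′ to 3′ on the sense strand as DNA, with the paired stem in capitals and the loop in lower case:
H1 (Hist1h1c, Hist1h1d, Hist1h1e), 10 H2A, 8 H2B and 5 H3 genes: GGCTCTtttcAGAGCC
Hist1h1t, Hist1h2bb, Hist1h2bk, Hist1h3c, Hist1h3e and Hist1h3f: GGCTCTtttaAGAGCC
Hist2h2ac: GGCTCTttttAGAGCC
Hist1h3g: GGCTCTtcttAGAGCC
7 H4 genes, among them Hist1h4c, Hist1h4d, Hist1h4f, Hist1h4h and Hist1h4m: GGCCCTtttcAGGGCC
Hist1h4i and Hist2h4: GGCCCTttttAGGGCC
Hist1h4a: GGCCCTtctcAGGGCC
Hist1h4b and Hist1h4j: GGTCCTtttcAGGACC
The stem of H4 genes was GGCCCT or GGTCCT, and the stem of H1, H2A, H2B and H3 genes was GGCTCT. Of the 20 genes with no match, 16 have an annotated end of under 60 bases after the stop codon, where there is little sequence to search. The other 4 were Hist1h2bc, Hist2h2be, Hist1h2bq and Hist1h2br, all of type H2B.

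Promoters were matched for 61 of the 68 genes in a RefSeq table (build GRCm38.p6). In the 300 bases from 250 before to 50 after the start, read on both strands, TATAAA occurred in 57.4% of the matched histone genes, against 15.7% of 27025 genes. CCAAT occurred in 85.2%, against 41.1% of all genes. All matched H1, H2A, H2B and H3 genes held CCAAT, and 3 of 12 H4 genes did. ATTTGCAT, the octamer bound by the factor Oct1, occurred in 7 of 17 H2A and 7 of 16 H2B genes, in none of the other matched genes and in 1.97% of all genes. AAACACA, known as the H1 box, occurred in 5 of 6 H1 genes, against 8.22% of all genes. It also occurred in 2 of 17 H2A and 2 of 16 H2B genes and in no matched H3 or H4 gene. These 4 motifs do not contain each other, and a match describes letters only. Paired H2A and H2B genes, described further on, share much of the searched stretch, so the same motif copy can count for both genes. The sequences below are the 250 bases before the start of a leading H1 gene, a leading H4 gene and the H2A genes of the 2 pairs described further on. Motifs on either strand are in capitals (CCAAT reads ATTGG, and the octamer ATGCAAAT, on the opposite strand):
Hist1h1e promoter (chr13:23622559-23622808, minus strand): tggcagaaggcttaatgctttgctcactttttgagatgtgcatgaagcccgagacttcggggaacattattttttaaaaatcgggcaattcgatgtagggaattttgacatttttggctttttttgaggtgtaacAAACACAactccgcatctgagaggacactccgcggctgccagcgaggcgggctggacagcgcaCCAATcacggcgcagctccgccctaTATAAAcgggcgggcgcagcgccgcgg
Hist1h4d promoter (chr13:23581318-23581567, plus strand): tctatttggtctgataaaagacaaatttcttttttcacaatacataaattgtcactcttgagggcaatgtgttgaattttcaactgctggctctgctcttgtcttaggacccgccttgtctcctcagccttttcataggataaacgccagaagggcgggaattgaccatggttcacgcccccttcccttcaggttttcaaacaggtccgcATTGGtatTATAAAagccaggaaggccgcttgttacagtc
Hist2h2ac promoter (chr3:96220881-96221130, minus strand): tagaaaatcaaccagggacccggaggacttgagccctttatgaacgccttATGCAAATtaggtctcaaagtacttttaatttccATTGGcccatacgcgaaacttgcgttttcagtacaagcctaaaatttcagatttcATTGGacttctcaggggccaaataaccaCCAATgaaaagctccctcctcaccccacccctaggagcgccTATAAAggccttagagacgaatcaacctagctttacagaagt
Hist1h2ac promoter (chr13:23683960-23684209, minus strand): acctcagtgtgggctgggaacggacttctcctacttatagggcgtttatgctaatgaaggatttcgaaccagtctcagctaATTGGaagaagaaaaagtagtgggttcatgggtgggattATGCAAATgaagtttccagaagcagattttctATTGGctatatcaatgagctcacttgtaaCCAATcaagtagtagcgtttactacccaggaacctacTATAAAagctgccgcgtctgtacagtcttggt
The Hist1h1e promoter held the H1 box, CCAAT and TATAAA, and that of Hist1h4d held CCAAT on the opposite strand and TATAAA. Both H2A promoters held the octamer, 3 CCAAT motifs and TATAAA.

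By annotation, 55 of the 68 genes lie on chromosome 13, 10 on chromosome 3, 2 on chromosome 11 and 1 on chromosome 6. The 31 genes of the largest block on chromosome 13 (23531050 to 23934851) held 6284 of the 7719 estimated histone reads. Another block (21715763 to 21837530) has 18 genes with 564 reads, and a smaller one (22035164 to 22043676) has 5 genes with 116. Reads were estimated from the deposited count columns, which are scaled (the step between low values was taken as 1 read).

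Each library held between 1200690 (PBS 3) and 3281530 (PTH 2) estimated reads, and the sources used here do not say that each library is a separate mouse. Errors and p-values therefore measure the spread between these libraries, which may be technical. All 10 hepatocyte markers checked were expressed, with summed levels, mostly from Alb, of 19201 to 33054 FPKM in PTH and 18130 to 36395 FPKM in PBS libraries. By limma with Benjamini-Hochberg adjustment 4 of them were lower in PTH and 0 higher, beside 2.37% of all tested genes lower and 22.8% higher. Those 4 were Fgb, Fga, Tat and Cyp2e1, with log2 differences from -2.48 (Tat) to -1.56 (Cyp2e1), while Alb stood at 0.74 and Ttr at 0.83 without passing the threshold. Summed neutrophil markers (10 genes, Ly6g listed at 0 in all 7 libraries) reached 4.22, 7.75, 32.1 and 1.88 FPKM in PTH 1 to 4, against 840.3, 74.9 and 171 FPKM in PBS 1 to 3. By the same test, 5 of the 6 tested neutrophil markers and 8 of the 11 tested macrophage markers were lower in PTH, and 1 macrophage marker was higher. That gene, Cd68, averaged 28.6 ± 12.3 FPKM in PTH and 6.71 ± 1.7 FPKM in PBS (SD, n = 4 and 3), and was not past the threshold at a common median of all libraries. The macrophage markers summed to 123 to 206 FPKM in PTH and 224 to 297 FPKM in PBS libraries. Of 7 tested erythroid markers 2 were higher in PTH, and lymphocyte markers stayed at sums of 0.601 to 2.48 FPKM. A gene was tested if 3 or more libraries reached 0.5 FPKM. The neutrophil markers Mpo and Ngp, lower in PTH, reached it only in PBS libraries. The erythroid marker Slc4a1, higher in PTH, reached it only in PTH libraries. These genes were tested only through the group where they were high, so nothing is drawn from their calls. In bulk tissue fewer cells of a type and less RNA per cell cannot be told apart, and the part of these cells in the histone values was not tested.

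Histone transcripts were a small part of these libraries. In all, 64 of the 68 genes were above 0 FPKM (fragments mapped to a gene, scaled by transcript length and library size) in at least 1 library, and 30 were above 0 in all 7. Hist1h2aa, Hist1h2al, Hist1h2br and Hist3h2ba were listed at 0 in every library. Together the genes made up 0.199%, 0.144%, 0.188% and 0.13% of the summed FPKM of PTH 1 to 4, against 0.214%, 0.174% and 0.0836% of PBS 1 to 3. The estimated histone reads per library came to 1847, 1198, 1389 and 595 in PTH 1 to 4, against 1526, 888 and 277 in PBS 1 to 3. Of the 68 genes, 42 had fewer than 50 reads over all 7 libraries and 16 had at least 100, so single values of most genes rest on a few reads. Many members also share sequence: 30 of 66 genes have at least 50% of their 50-base stretches in another clustered histone gene, with a median of 48.2%. No source used here states how reads that match several genes were assigned, so the split between near-identical genes is uncertain.

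**Figure D1:**
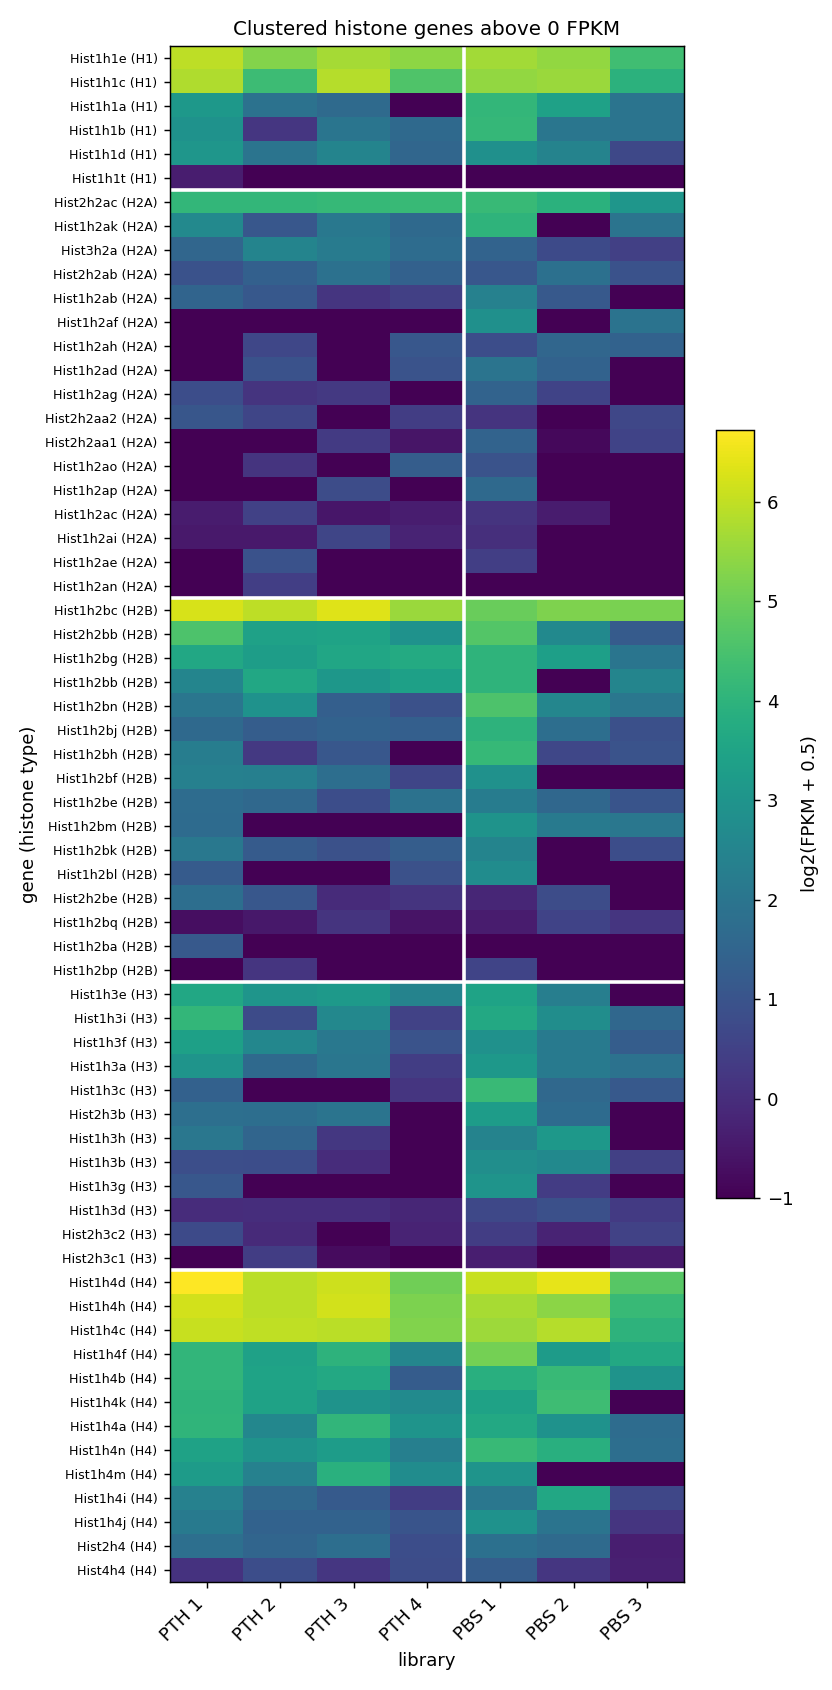
The 64 clustered histone genes above 0 FPKM (rows, grouped by histone type and ordered by mean level) in the 4 PTH and 3 PBS libraries (columns), coloured by log2(FPKM + 0.5). A few H4, H1 and H2B genes are high in all 7 libraries, and many others are highest in PBS 1.

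H4 genes gave the largest share of the histone signal in FPKM, a mean of 45.2% of the summed histone FPKM per library with a range of 37.7% to 52.3%. FPKM divides by transcript length. In estimated reads the H1 genes held the most, 2976 of 7719, and the H4 genes 1998. H4 is a core histone, and its clustered genes encode the same protein. The highest gene of all 68 by mean FPKM was Hist1h4d (chr13:23581598-23582735, plus strand, 441 reads), with 105, 60.7, 69.9 and 32.8 FPKM in PTH 1 to 4, against 66.4, 85.1 and 25.9 FPKM in PBS 1 to 3. Hist1h4h (chr13:23531050-23531519, plus strand) had 72.3, 59.9, 72.9 and 35.8 FPKM in PTH 1 to 4, against 52.2, 41.4 and 17.8 FPKM in PBS 1 to 3. In both genes PBS 3 was the lowest library and the groups overlapped. Hist1h4h had more reads (480) than Hist1h4d over a shorter annotated span, yet a lower FPKM. The lengths behind the deposited FPKM therefore differ from these spans, and the order of the genes depends on them. Hist1h4c (chr13:23697635-23698454, minus strand) had 67.4, 62.7, 59.8 and 37.8 FPKM in PTH 1 to 4, against 48.2, 57.9 and 15.4 FPKM in PBS 1 to 3, again lowest in PBS 3 and overlapping. Hist1h4f, the fourth, had 16.5, 10.2, 15.5 and 5.3 FPKM in PTH 1 to 4, against 34, 8.97 and 12.2 FPKM in PBS 1 to 3, with PBS 1 at least 2 times as high as any other library. Together these 4 genes held 76.0% of the H4 sum. Their means over the 7 libraries were 63.7, 50.3, 49.9 and 14.7 FPKM. The other 9 H4 genes had means from 0.946 (Hist4h4) to 11.5 FPKM (Hist1h4b), and all 13 H4 genes passed the filter used for fitting.

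H1 histones sit on the linker DNA between nucleosomes. The H1 genes held a mean of 18.9% of the summed histone FPKM, and a pair of genes made up 69.6% to 92.9% of the H1 sum of a library, lowest in PBS 1. Hist1h1e (chr13:23620629-23622558, minus strand) had 62, 38.8, 51.2 and 42.2 FPKM in PTH 1 to 4, against 49.4, 43.7 and 19.9 FPKM in PBS 1 to 3. Hist1h1c (chr13:23738808-23740367, plus strand) had 55.6, 19.2, 57.2 and 23.9 FPKM in PTH 1 to 4, against 44, 46.4 and 15 FPKM in PBS 1 to 3. In both genes PBS 3 was the lowest library, and the groups overlapped. Hist1h1c had 1525 estimated reads, the most of any clustered histone gene. Hist1h1a had 8.19, 3.29, 2.68 and 0 FPKM in PTH 1 to 4, against 16.7, 10.2 and 3.43 FPKM in PBS 1 to 3. Hist1h1b had 7.22, 0.663, 3.47 and 2.63 FPKM in PTH 1 to 4, against 17.3, 3.58 and 3.45 FPKM in PBS 1 to 3. Both were highest in PBS 1, and in both the groups overlapped. Hist1h1d had a mean of 4.52 FPKM, and the testis gene Hist1h1t had 1 read in all.

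The H2B genes held a mean of 22.1% of the histone sum. Hist1h2bc (chr13:23684199-23692908, plus strand) led them with 76.2, 61.1, 81 and 46.3 FPKM in PTH 1 to 4, against 30.5, 37.3 and 35.6 FPKM in PBS 1 to 3. All 4 PTH libraries were above all 3 PBS libraries. Its annotated transcript has 2 exons and runs 742 bases past the stop codon, with no stem-loop in the 150 bases searched. Hist2h2bb had 23.2, 10.1, 10.6 and 7.21 FPKM in PTH 1 to 4, against 24.8, 5.8 and 1.82 FPKM in PBS 1 to 3, high in PTH 1 and PBS 1. Its identifier belongs to a noncoding gene in GENCODE M21, so no coding sequence was matched. Hist1h2bg had 11.8, 9.31, 11.3 and 12.7 FPKM in PTH 1 to 4, against 15.8, 9.76 and 3.52 FPKM in PBS 1 to 3, in overlapping groups with PBS 3 lowest. Hist1h2bb had 5.19, 12, 7.96 and 9.91 FPKM in PTH 1 to 4, against 15.8, 0 and 5.21 FPKM in PBS 1 to 3. PBS 1 was again highest there and PBS 2 was listed at 0. The other 14 H2B genes had means of at most 6.59 FPKM. Hist1h2ba, an H2B gene known from testis, had 2 reads, all in PTH 1.

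The 19 H2A genes held a mean of 7.21% of the histone sum. Hist2h2ac on chromosome 3 (chr3:96220361-96220880, minus strand) was the main one with 16.7, 16.8, 17.4 and 17.9 FPKM in PTH 1 to 4, against 18.1, 14.9 and 7.83 FPKM in PBS 1 to 3. The 4 PTH libraries lay within 1.2 FPKM of each other, and PBS 3 was the lowest. Hist1h2ak had 5.68, 1.65, 3.81 and 2.6 FPKM in PTH 1 to 4, against 15.8, 0 and 3.42 FPKM in PBS 1 to 3, highest in PBS 1 and listed at 0 in PBS 2. Hist3h2a on chromosome 11 (chr11:58954685-58956830, plus strand) had 2.41, 5.09, 4.18 and 2.85 FPKM in PTH 1 to 4, against 2.23, 1.15 and 0.88 FPKM in PBS 1 to 3. Every PTH library was above every PBS library, with PTH 1 at 2.41 and PBS 1 at 2.23 FPKM closest to each other. Hist2h2ab had 1.41, 2.07, 3.15 and 2.16 FPKM in PTH 1 to 4, against 1.63, 3.13 and 1.42 FPKM in PBS 1 to 3, in overlapping groups and with only 17 reads in all. Of the other 15 H2A genes, 2 were listed at 0 and none had a mean above 1.71 FPKM.

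The 12 H3 genes held the smallest mean share of the histone FPKM, 6.56%. In PTH 1, PBS 1 and PBS 2 their share was above that of H2A. In estimated reads H2A genes had fewer, 507 against 579 for H3. Hist1h3e (chr13:23561534-23562369, minus strand) had 11.9, 7.71, 8.64 and 4.99 FPKM in PTH 1 to 4, against 10.7, 4.42 and 0 FPKM in PBS 1 to 3, so that PBS 3 was the only library listed at 0. Hist1h3i had 16.8, 1.21, 5.54 and 0.948 FPKM in PTH 1 to 4, against 12.2, 6.44 and 2.49 FPKM in PBS 1 to 3, with PTH 1 and PBS 1 high. Of its 50-base stretches 87.6% occur in another clustered histone gene, and 73.4% of those of Hist1h3e. Hist1h3f had 9.97, 5.48, 3.73 and 1.45 FPKM in PTH 1 to 4, against 6.95, 3.9 and 1.91 FPKM in PBS 1 to 3. Hist1h3a had 7.5, 2.6, 3.59 and 0.819 FPKM in PTH 1 to 4, against 8.09, 3.98 and 3.23 FPKM in PBS 1 to 3. In both the highest library of PTH was PTH 1 and that of PBS was PBS 1, and the groups overlapped. The other 8 H3 genes had means from 0.203 to 3.63 FPKM.

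Summed over all 68 genes, the level was 721, 480.2, 588 and 344 FPKM in PTH 1 to 4, against 739, 518 and 222 FPKM in PBS 1 to 3. The means were 533 ± 160 FPKM in PTH and 493 ± 259 FPKM in PBS (SD, n = 4 and 3), a log2 ratio of 0.11, and the lowest and highest libraries of the set were both PBS libraries. H1 genes summed to 141, 65.4, 119.5 and 71.1 FPKM in PTH 1 to 4, against 134, 109 and 42.8 FPKM in PBS 1 to 3, a log2 ratio of 0.06. H2A genes summed to 31.9, 35.4, 33.1 and 33 FPKM in PTH 1 to 4, against 65, 26.7 and 21.1 FPKM in PBS 1 to 3, a log2 ratio of -0.17. The H2A sums of the 4 PTH libraries differed by at most 1.11-fold, and those of the 3 PBS libraries by 3.08-fold. H2B genes summed to 148, 114, 123 and 87.9 FPKM in PTH 1 to 4, against 174, 70.9 and 59.7 FPKM in PBS 1 to 3, a log2 ratio of 0.22. H3 genes summed to 59.5, 25.4, 26.7 and 9.59 FPKM in PTH 1 to 4, against 86.9, 40.5 and 12.1 FPKM in PBS 1 to 3, a log2 ratio of -0.62. H4 genes summed to 341, 240.4, 285 and 143 FPKM in PTH 1 to 4, against 279, 271 and 86.7 FPKM in PBS 1 to 3, a log2 ratio of 0.25. In all 5 types the PTH and PBS sums overlapped, and the mean difference was smaller than the spread among the PBS libraries. Single libraries set the direction. Without PBS 1 the log2 ratio was 0.48 for H2A, 0.86 for H2B and 0.20 for H3. Without PTH 1 it was -0.067 for all genes and -0.16 for H1, and -0.041 for H1 without PTH 3. Without PBS 3 it was -0.24 for all genes, -0.29 for H1, -0.053 for H2B and -0.12 for H4. After scaling all libraries to a common median, the sums of all genes and of all 5 types had negative log2 ratios, from -1.15 for H3 to -0.30 for H4. With the deposited scaled counts in place of FPKM the ratio for H2A was 0.19.

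**Figure D2:**
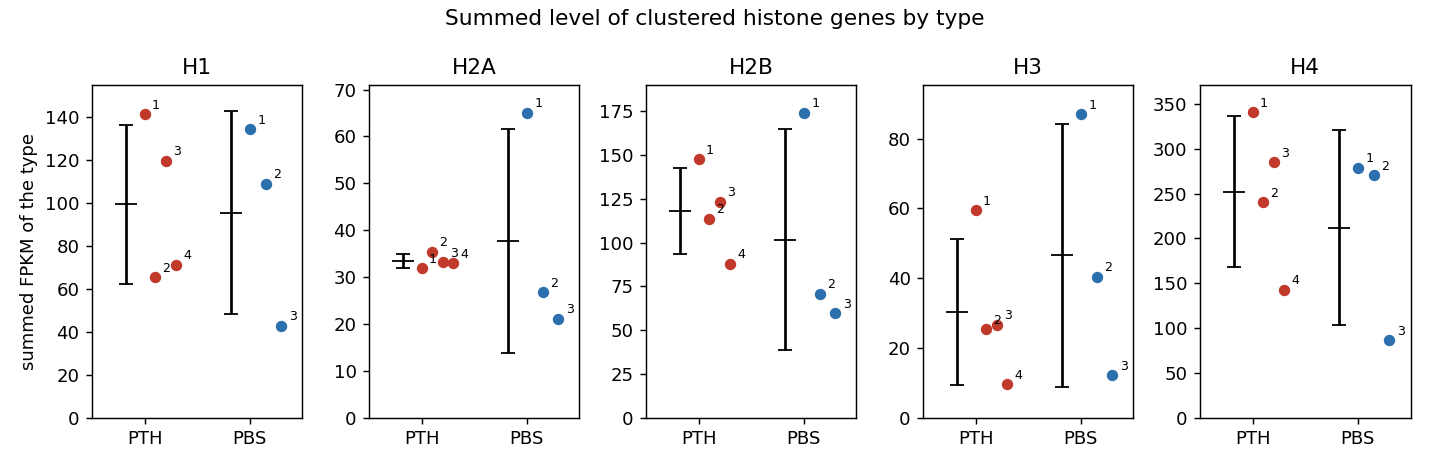
Summed FPKM of the clustered histone genes of each type (vertical axis, a separate scale per type) in each PTH library (red, left) and PBS library (blue, right), with library numbers beside the points. Horizontal and vertical lines give the mean and SD (n = 4 PTH and 3 PBS); PBS 1 is the highest and PBS 3 the lowest PBS library in all 5 types.

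Many histone genes had their highest level in the same library, PBS 1. It held the highest FPKM of 32 of the 64 genes above 0 (50%), against 8.76% of the 11861 tested genes. Among the 54 histone genes that passed the filter PBS 1 held the highest value of 29, and of 31 with each library at a common median. PTH 1 held the highest value of 12 of the 64 genes, PTH 3 of 7, PTH 2 of 5, PTH 4 of 1, PBS 2 of 7 and PBS 3 of 0. PTH 2, which held the highest value of 32.5% of all tested genes, held that of 7.81% of the histone genes. The SD of log2(FPKM + 0.5) within groups had a median of 0.97 over the 54 histone genes and 0.44 over all tested genes. PBS 1 was also the library with the most neutrophil marker RNA (840.3 FPKM against 1.88 to 171 FPKM in the other 6). Of the 6 tested neutrophil markers 5 were highest in it, among them Mpo and Ngp, which were tested only through PBS libraries. Also highest in PBS 1 were 11 of 45 tested genes of DNA replication and the cell cycle, 6 of 10 hepatocyte markers and 4 of 11 macrophage markers. The same held for 2 of 9 tested replication-independent variants and 2 of 23 histone chaperones and deposition factors. It held for 0 of 21 tested genes of histone mRNA transcription, processing and decay and 0 of 7 erythroid markers. The part of these genes' cells in the PBS 1 values was not tested.

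**Figure D3:**
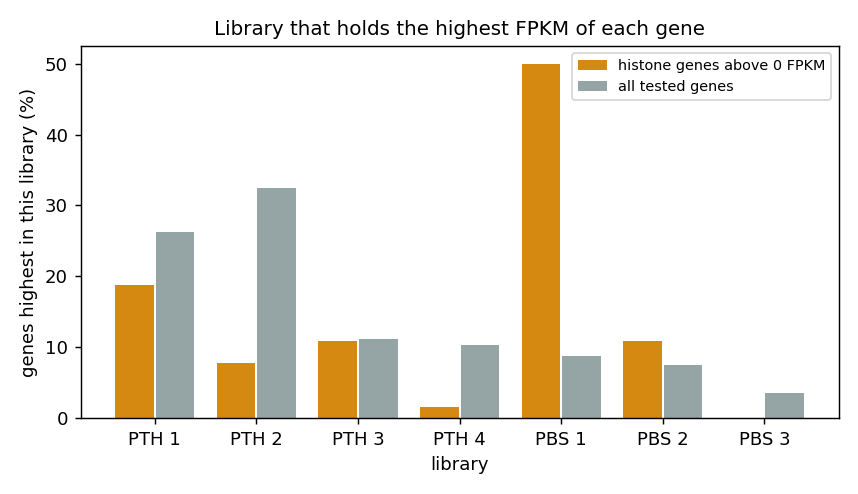
Share of genes (vertical axis, percent) whose highest FPKM of the 7 libraries was in the library on the horizontal axis, for the 64 histone genes above 0 FPKM (orange) and the 11861 tested genes (grey). PBS 1 holds 50% of the histone genes and 8.76% of all tested genes.

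In the comparison of PTH with PBS livers the histone genes lay on both sides of 0 in the values as deposited. The filter of at least 0.5 FPKM in at least 3 libraries kept 54 of the 68 genes (5 H1, 11 H2A, 14 H2B, 11 H3 and 13 H4). Their fitted differences (PTH minus PBS, log2(FPKM + 0.5)) were positive for 26 and negative for 28, with a median of -0.05. The median over all 11861 tested genes was 0.55, and 78.2% of them were positive. By type the median difference was 0.15 for H1, 0.09 for H2A, 0.16 for H2B, -0.67 for H3 and 0.23 for H4, and 9 of the 11 tested H3 genes were negative. Scaling each library to a common median moved all genes by 0.57, and with it the median of the 54 genes was -0.63 and all 5 types were negative (-0.42, -0.48, -0.41, -1.24 and -0.35 in the same order). Past the limma threshold (Benjamini-Hochberg adjusted over all tested genes, 0.05, two-sided) were 3 histone genes higher in PTH (Hist1h2bc, Hist3h2a and Hist1h4m) and 2 lower (Hist1h2bm and Hist1h3c). For all tested genes the shares past it were 25.2% in either direction, 22.8% higher and 2.37% lower. At a common median, 0 histone genes were past it higher and 4 lower (Hist1h2bm, Hist1h3b, Hist1h3c and Hist1h3d), beside 8.5% of all genes (3.25% higher and 5.25% lower). The groups did not overlap for 2 tested histone genes higher in PTH (Hist1h2bc and Hist3h2a) and 2 lower (Hist1h2bm and Hist1h3d), beside 36.1% of all tested genes (32.9% higher and 3.2% lower). Leaving out single libraries moved the 2 counts past the threshold, to 5 higher and 1 lower without PBS 1, 0 and 1 without PBS 2, 0 and 3 without PBS 3, 1 and 3 without PTH 1, 0 and 0 without PTH 2, 0 and 1 without PTH 3 and 1 and 2 without PTH 4.

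**Figure D4:**
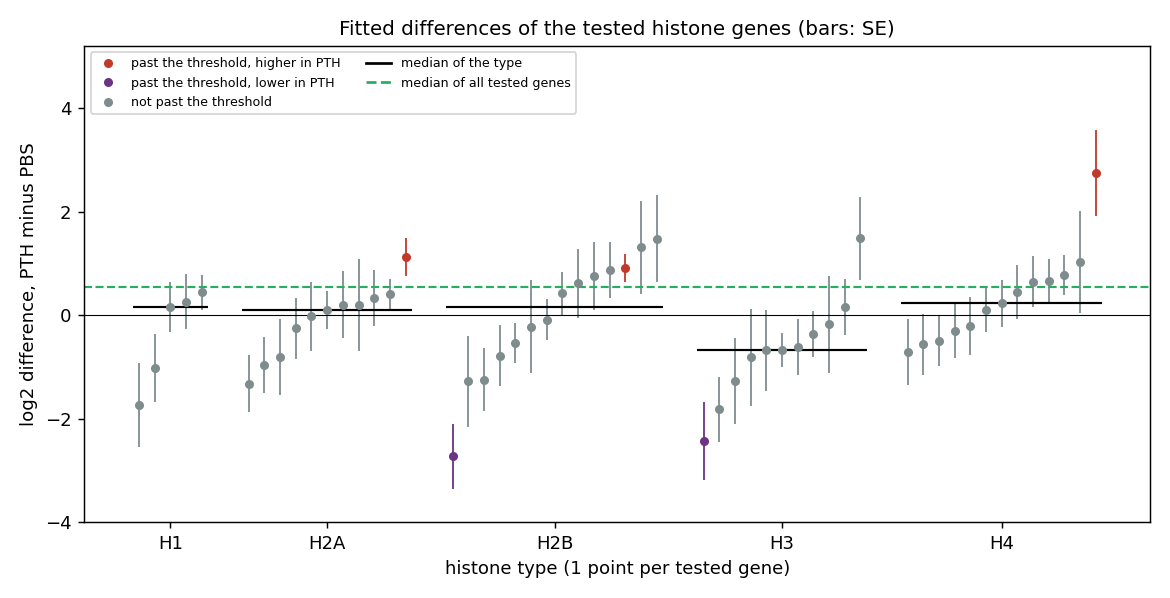
Fitted log2 difference (PTH minus PBS, vertical axis) of each of the 54 histone genes that passed the filter, grouped by type and sorted within it, with its SE. Black lines give the median of the type and the dashed line the median of all 11861 tested genes, 0.55; most H3 genes lie below 0, and 5 genes are coloured as past the threshold.

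The genes with the largest positive differences were Hist1h4m, Hist1h3e, Hist1h2bf and Hist1h2bb. Hist1h4m had 9.0, 4.8, 14.6 and 6.24 FPKM in PTH 1 to 4, against 7.55, 0 and 0 FPKM in PBS 1 to 3, a fitted difference of 2.74 (SE 0.83). It was listed at 0 in PBS 2 and PBS 3, while PBS 1 lay inside the PTH range, and 89.8% of its 50-base stretches occur in other clustered histone genes. It passed the filter through the PTH libraries where it was high, so nothing is drawn from its being past the threshold. Hist1h3e, whose values are given above, differed by 1.48 (SE 0.81). Hist1h2bf had 4.66, 4.54, 2.97 and 1.02 FPKM in PTH 1 to 4, against 6.94, 0 and 0 FPKM in PBS 1 to 3, a difference of 1.48 (SE 0.84). For Hist1h2bb it was 1.31 (SE 0.90). In all 4 genes at least 1 PBS library was listed at 0 and PBS 1 lay inside or above the PTH range. Hist1h2bc, with the most reads of the genes past the threshold (894), averaged 66.1 ± 15.7 FPKM in PTH and 34.5 ± 3.57 FPKM in PBS (SD, n = 4 and 3), a difference of 0.90 (SE 0.27). With a common median it was 0.33 and no longer past the threshold. Hist3h2a averaged 3.63 ± 1.23 FPKM in PTH and 1.42 ± 0.715 FPKM in PBS, a difference of 1.12 (SE 0.37), and 0.55 at a common median. Over 16 alternative fits Hist1h2bc was past the threshold in 8, Hist3h2a in 7 and Hist1h4m in 6. The other leading genes of each type that are not among the extremes differed by -1.02 (Hist1h1b) to 0.77 (Hist1h4h), and none was past the threshold. For the 5 with the highest mean level the difference was 0.23 (SE 0.45) for Hist1h4d, 0.77 (SE 0.39) for Hist1h4h, 0.65 (SE 0.42) for Hist1h4c, 0.44 (SE 0.34) for Hist1h1e and 0.15 (SE 0.48) for Hist1h1c.

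The largest negative differences were those of Hist1h2bm, Hist1h3c, Hist1h3b and Hist1h1a. Hist1h2bm (chr13:21722044-21722567, plus strand) had 2.72, 0, 0 and 0 FPKM in PTH 1 to 4, against 7.3, 4.01 and 3.64 FPKM in PBS 1 to 3, a difference of -2.72 (SE 0.63). It was listed at 0 in 3 of 4 PTH libraries and had 15 reads in all 7. It was past the threshold in 14 of the 15 alternative fits that included it, all but the one without PTH 2. It passed the filter through the PBS libraries where it was high, and these fits reuse the same values. Nothing is drawn from its being past the threshold. Hist1h3c (chr13:23744973-23745602, minus strand) had 2.13, 0, 0 and 0.652 FPKM in PTH 1 to 4, against 18.4, 2.54 and 1.71 FPKM in PBS 1 to 3, a difference of -2.43 (SE 0.76). Here PBS 1 stood far above the other 6 libraries, and PTH 1 lay inside the PBS range. It was past the threshold in 8 of 16 alternative fits, and without PBS 1 the difference was -1.47 and not past it. Hist1h3b had 1.31, 1.26, 0.487 and 0 FPKM in PTH 1 to 4, against 6.6, 5.83 and 0.875 FPKM in PBS 1 to 3, a difference of -1.82 (SE 0.62). PBS 3 lay inside the PTH range there, and PBS 1 and PBS 2 were above all PTH libraries. For Hist1h1a the difference was -1.74 (SE 0.81), with values given above. Hist1h3d, with 0.487, 0.497, 0.51 and 0.381 FPKM in PTH 1 to 4, against 1.1, 1.34 and 0.739 FPKM in PBS 1 to 3, was the other gene with all PTH libraries below all PBS libraries, and its difference was -0.67 (SE 0.33). Of the 14 genes left out by the filter, Hist1h2af had 0 FPKM in all 4 PTH libraries, against 6.77, 0 and 3.37 FPKM in PBS 1 to 3, from 9 reads in all.

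H2A and H2B genes often lie in pairs that start back to back and share the sequence between them. There were 12 such pairs, 11 of them on chromosome 13, with 176 to 306 bases between the annotated starts. The H2B gene had the higher mean FPKM in 9 pairs and the H2A gene in 3. Hist1h2ac and Hist1h2bc start 251 bases apart. Hist1h2ac had 0.259, 0.908, 0.194 and 0.264 FPKM in PTH 1 to 4, against 0.609, 0.258 and 0 FPKM in PBS 1 to 3, and Hist1h2bc, given above, had 148-fold its mean level (52.6 against 0.36 FPKM, from 894 and 26 reads). The Hist1h2ac promoter printed above covers most of the stretch between these starts and the first bases of Hist1h2bc as annotated in GENCODE M21. Hist1h2ae and Hist1h2bg start 176 bases apart, and Hist1h2bg had 32.5-fold the mean level. Hist2h2ac and Hist2h2be on chromosome 3 start 239 bases apart and were the reverse, with 15.6 FPKM for Hist2h2ac and 1.04 FPKM for Hist2h2be, a 15.1-fold ratio. Hist2h2be, an H2B gene known from olfactory neurons in the mouse, had 2.93, 1.64, 0.458 and 0.623 FPKM in PTH 1 to 4, against 0.383, 1.22 and 0 FPKM in PBS 1 to 3. FPKM divides by transcript length, and the annotated transcripts of Hist1h2ac and Hist2h2be run 2058 and 2192 bases past the stop codon. In reads the second pair stood at 163 for Hist2h2ac against 81 for Hist2h2be.

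**Figure D5:**
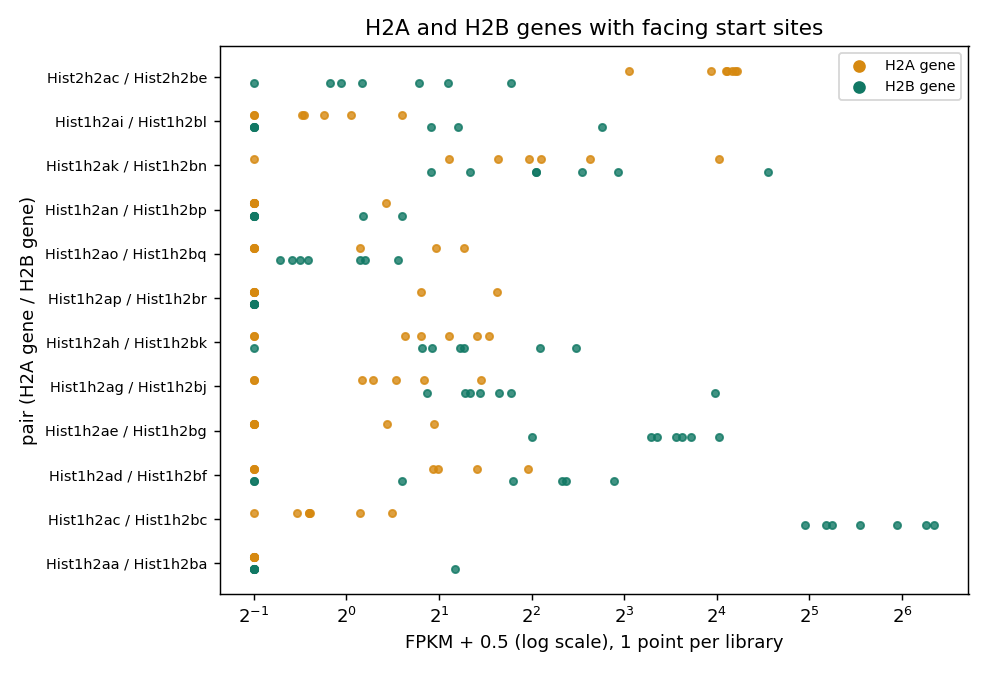
FPKM + 0.5 on a log scale (horizontal axis) of the H2A gene (orange) and the H2B gene (green) of each of the 12 pairs with facing starts (rows), 1 point per library over all 7. Hist1h2bc lies far above Hist1h2ac in every library, and Hist2h2ac lies above Hist2h2be in every library.

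The highest of the replication-independent variants, which are encoded outside the clusters, was H3f3b with a mean of 89 FPKM over the 7 libraries, beside 63.7 FPKM for Hist1h4d. Of 9 tested variants 1 was higher in PTH by limma with Benjamini-Hochberg adjustment and 0 lower, with a median difference of 0.57, beside 22.8% of all tested genes higher and 2.37% lower. That gene was H2afj, an H2A variant outside the rule for named genes, with 11.1, 18.5, 13.6 and 15.6 FPKM in PTH 1 to 4, against 8.33, 5.93 and 2.66 FPKM in PBS 1 to 3, a difference of 1.41 (SE 0.36) and limma adjusted p = 0.0196. It lost the call without PBS 3, without PTH 2, with a block for the replicate number and under both scalings (common median and quantile). H3f3b, a gene of the replacement histone H3 variant, had 46.4, 95.9, 73.9 and 73.8 FPKM in PTH 1 to 4, against 128, 123 and 82.4 FPKM in PBS 1 to 3. Its difference was -0.63 (SE 0.30) with adjusted p = 0.14 by limma, and it was past the threshold, lower in PTH, at a common median (-1.20). H3f3a, which encodes the same protein, had 44.8, 33.7, 55.1 and 37.5 FPKM in PTH 1 to 4, against 40.6, 27 and 20.5 FPKM in PBS 1 to 3, with a difference of 0.57 (SE 0.30) and adjusted p = 0.172 by limma, or -0.0069 at a common median. H1f0, a linker histone of cells that no longer divide, had 43, 43.2, 29.7 and 20.2 FPKM in PTH 1 to 4, against 19.7, 28.6 and 7.76 FPKM in PBS 1 to 3, with a difference of 0.96 (SE 0.42) and adjusted p = 0.111 by limma. H2afy, which encodes macroH2A, averaged 29.8 ± 7.39 FPKM in PTH and 24.2 ± 5.33 FPKM in PBS (SD, n = 4 and 3), a difference of 0.28 (limma adjusted p = 0.493) that was negative under both scalings.

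Of the 21 tested genes that transcribe, process or degrade histone mRNA, 9 rose in PTH and 0 fell by limma with Benjamini-Hochberg adjustment, with a median difference of 0.97. Of all tested genes 22.8% rose and 2.37% fell. At a common median 2 were higher and 0 lower, beside 3.25% and 5.25% of all tested genes, and the count was 5 without PBS 2 or without PBS 3 and 2 without PTH 2. Snrpd3, an Sm protein that the U7 particle shares with the spliceosome, had 43.3, 35, 34.8 and 30.4 FPKM in PTH 1 to 4, against 20.0, 16.8 and 17.2 FPKM in PBS 1 to 3, a difference of 0.97 (SE 0.24) and limma adjusted p = 0.0182. It lost the call without PBS 2, without PBS 3, without PTH 2 and under both scalings. Snrpb, another Sm protein, had 37.6, 33.4, 24.2 and 25.2 FPKM in PTH 1 to 4, against 17.9, 20.9 and 8.45 FPKM in PBS 1 to 3, with a difference of 0.98 (SE 0.33) and adjusted p = 0.0507 by limma. Upf1, a helicase of histone mRNA decay, had 17.3, 21, 17.1 and 18.4 FPKM in PTH 1 to 4, against 13.8, 11.8 and 10.4 FPKM in PBS 1 to 3, with a difference of 0.61 (SE 0.24) and adjusted p = 0.0854 by limma. For both, all 4 PTH libraries were above all 3 PBS libraries. Zcchc6, which adds uridines to histone mRNA before decay, averaged 15.8 ± 2.08 FPKM in PTH and 14.1 ± 2.36 FPKM in PBS, a difference of 0.16 (limma adjusted p = 0.646) that was negative under both scalings. Chosen after their values were seen, Slbp, the stem-loop binding protein, had 9.17, 18.8, 10.5 and 17.7 FPKM in PTH 1 to 4, against 9.29, 10.8 and 6.02 FPKM in PBS 1 to 3, with a difference of 0.63 (SE 0.33) and adjusted p = 0.174 by limma. Npat, the activator of histone gene transcription, had 3.16, 5.38, 4.12 and 7.51 FPKM in PTH 1 to 4, against 2.2, 1.98 and 1.84 FPKM in PBS 1 to 3, with a difference of 1.09 (SE 0.34) and adjusted p = 0.0372 by limma. Npat kept the call in 6 of 16 alternative fits, and at a common median its difference was 0.51 with a limma adjusted p of 0.373.

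Among 23 tested histone chaperones and deposition factors 10 rose in PTH and 0 fell by limma with Benjamini-Hochberg adjustment, beside 22.8% of all tested genes higher and 2.37% lower. At a common median 3 were higher and 0 lower, beside 3.25% and 5.25%. Npm1, a nucleolar chaperone, had 120.0, 175, 123 and 98.4 FPKM in PTH 1 to 4, against 44, 22.1 and 38.9 FPKM in PBS 1 to 3, a difference of 1.89 (SE 0.31) and limma adjusted p = 0.00442. Set, a chaperone that also inhibits histone acetylation, had 62.7, 68.7, 63.5 and 54.6 FPKM in PTH 1 to 4, against 21.5, 17.2 and 16.1 FPKM in PBS 1 to 3, a difference of 1.75 (SE 0.24) and limma adjusted p = 0.00306. In both genes every PTH library was more than 2 times as high as every PBS library. Rbbp7, a histone-binding subunit of several chromatin complexes, had 25, 46, 31.4 and 26.7 FPKM in PTH 1 to 4, against 16.4, 9.94 and 14.9 FPKM in PBS 1 to 3, a difference of 1.19 (SE 0.30) and limma adjusted p = 0.0179, and lost the call without PBS 2, without PTH 2 and under both scalings. Atrx, which deposits the replacement H3, averaged 47 ± 10.6 FPKM in PTH and 38.2 ± 8.25 FPKM in PBS, a difference of 0.29 (limma adjusted p = 0.446) that was negative under both scalings. The count was 6 without PBS 2 and 5 without PTH 2.

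Of 45 tested genes of DNA replication and the cell cycle, 8 rose in PTH and 2 fell by limma with Benjamini-Hochberg adjustment, beside 22.8% of all tested genes higher and 2.37% lower. At a common median 3 were higher and 8 lower, beside 3.25% and 5.25%. Pcna, the sliding clamp of DNA polymerase, had 18.3, 24.3, 21.2 and 14.9 FPKM in PTH 1 to 4, against 5.37, 1.32 and 3.01 FPKM in PBS 1 to 3, a difference of 2.57 (SE 0.38) and limma adjusted p = 0.00344. Every PTH library was above every PBS library. Mcm7, a subunit of the replicative helicase, had 10.5, 8.24, 8.0 and 8.37 FPKM in PTH 1 to 4, against 7.34, 4.11 and 4.81 FPKM in PBS 1 to 3, with a difference of 0.68 (SE 0.29) and adjusted p = 0.0975 by limma. Cdk2, a kinase of S phase entry, had 3.21, 5.77, 5.61 and 7.23 FPKM in PTH 1 to 4, against 3.21, 1.69 and 2.46 FPKM in PBS 1 to 3, with a difference of 0.99 (SE 0.35) and adjusted p = 0.0543 by limma. The 2 that fell were outside the rule for named genes and are given because there were only 2. Mki67, the proliferation marker, had 0.808, 0.174, 0.341 and 0.433 FPKM in PTH 1 to 4, against 7.38, 1.73 and 1.46 FPKM in PBS 1 to 3, a difference of -1.83 (SE 0.49) and limma adjusted p = 0.0234. Aurkb, a mitotic kinase, had 0, 0, 0.493 and 0 FPKM in PTH 1 to 4, against 2.84, 1.93 and 0.56 FPKM in PBS 1 to 3, a difference of -1.79 (SE 0.46) and limma adjusted p = 0.0201. No PTH library of Aurkb reached 0.5 FPKM, so it was tested only through the PBS libraries where it was high. For Mki67 only PTH 1 of the PTH libraries reached 0.5 FPKM, so it too passed the filter through the PBS libraries. Nothing is drawn from either call. Mki67 and Aurkb were highest in PBS 1, as were 32 of the 64 histone genes above 0. Neither passed without PBS 1 or without PTH 2. Mki67 also did not pass without PTH 3, nor Aurkb without PBS 2 or with a block for the replicate number. The count of falls was 1 without PTH 3. The count of rises was 3 without PBS 2, 4 without PTH 2 and 5 without PTH 3 or PTH 4.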

How the data were processed

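Liver RNA of 7 mouse samples was analysed, 4 with the treatment label PTH and 3 with the label PBS. The table deposited by the authors holds FPKM and a count column per gene and library, per the file headers. Both were computed by the authors before deposit, and the submitters' processing notes name Bowtie 0.12.2 and mm8 but no quantifier. Positions in that table match GRCm38, and coordinates here come from GENCODE M21 (GRCm38). The deposited count columns hold a scaled signal, since 92.3% to 94.1% of a library's values are multiples (tolerance 0.05) of a library-specific step. They were therefore not tested as counts, and dividing by the step gave the estimated reads that describe depth.

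A gene was tested if 3 or more libraries reached 0.5 FPKM, which kept 11861 genes. On log2(FPKM + 0.5), limma 3.58.1 (R 4.3.3) was run with the trend and robust options of eBayes, and p-values (two-sided) were adjusted over all tested genes by Benjamini-Hochberg, with 0.05 as the threshold. The scale understates changes of low genes. Of the 68 histone genes 61 were found by identifier and 7 by symbol in GENCODE M21, 3 of those found by identifier under another symbol. The histone genes, the 4 pathway lists, the 5 marker lists and a list of 7 RNAs without a poly(A) tail, of which the table holds 0, were chosen with earlier results of these data known. Given in full are the 4 genes with the highest mean FPKM of each histone type and of each pathway list, and the 4 largest positive and 4 largest negative fitted differences of histone genes. One gene that this rule names is not reported here. Other genes named were chosen after their values were seen. In a simulation with the spread of these libraries (11860 genes) limma called 4 of 91 genes with a change of 1 log2 unit (4.4%), 54 of 109 with a change of 2 (49.5%) and 0 unchanged genes. Only these 91 and 109 genes were changed, whereas 25.2% of all tested genes passed the threshold in the data. The Benjamini-Hochberg adjustment depends on that share, so the simulated figures do not carry over to the comparison of PTH with PBS.

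Alternatives covered single libraries left out, a block for the replicate number, quantile and common-median scaling, no filter on low values, a filter at 1 FPKM, pseudocounts of 0.1 or 1, limma with neither trend nor robust, and the scaled counts with 5 as minimum and pseudocount. Hairpins were searched in GENCODE M21 transcripts and motifs in a RefSeq promoter table (GRCm38.p6). Figures were drawn with matplotlib 3.10.9 (Python 3.11.15).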

Additional observations from a re-analysis of the deposited data

Results flagged for a closer look

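In 3 of 56 groups of values checked, 1 PTH library stood apart from the other 3 by more than Dixon's 95% limit for 4 samples. Chance alone sets about 1 in 20 such groups apart. Hist1h2bm had 2.72 FPKM in PTH 1 and was listed at 0 in the other 3 PTH libraries. H2afy was at 18.8 FPKM in PTH 4, below 32.5 to 34.2 FPKM in the other 3. Mcm7 was at 10.5 FPKM in PTH 1, above 8 to 8.37 FPKM in the other 3.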

How the results depend on the processing

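The number of histone genes past the threshold higher in PTH, 3 as reported, was 0 at a common median and after quantile normalization, 1 with no filter, and 0 to 5 when single libraries were left out. The number lower, 2 as reported, was 4 at a common median, 1 with no filter, 1 with a pseudocount of 0.1, 0 with the scaled counts, and 0 to 3 when single libraries were left out. With the replicate number as a block they were 2 and 3, and all genes stood at 1558 higher and 177 lower, against 2709 and 281 as reported. Same-numbered libraries did not deviate together (correlations of -0.03, -0.16 and 0.01 across genes), so the numbers were not taken to pair the samples. For all genes the counts were 385 and 623 at a common median, 467 and 510 after quantile normalization, and 970 to 2710 and 119 to 431 when single libraries were left out. The variants had 0 to 2 higher when single libraries were left out, 0 under both scalings and 4 with the scaled counts (1 as reported), and 1 lower under both scalings and with no filter (0 as reported). Genes of histone mRNA transcription, processing and decay had 2 to 9 higher (9 as reported) when single libraries were left out and 2 under both scalings. Chaperones had 5 to 13 (10 as reported) and 3. Genes of DNA replication and the cell cycle had 3 to 10 higher (8 as reported) and 0 to 3 lower (2 as reported) when single libraries were left out. They had 4 higher and 1 lower with the replicate block, 3 and 8 at a common median and 3 and 5 after quantile normalization. The higher count was 5 with no filter and 13 with the scaled counts, and the lower count was 1 with a minimum of 1 FPKM and 4 for limma without trend and robust. The median difference of the tested histone genes, -0.05 as reported, was 0.40 without PBS 1, -0.44 without PBS 3 and -0.63 at a common median. Every alternative moved it by less than the spread between replicates. That spread was 0.76 log2 units, so this check is wide and leaves the sign of the median unsettled. The log2 ratio of summed FPKM ranged from -0.46 to 0.48 for H2A and from -0.053 to 0.86 for H2B when single libraries were left out, and PBS 1 gave the upper end of both. Signs turned at a common median for H3f3a (-0.0069), H2afy (-0.29), Zcchc6 (-0.41) and Atrx (-0.28), and after quantile normalization for H2afy (-0.22), Zcchc6 (-0.39) and Atrx (-0.11). The cause was not tested. Of 256 values of the 16 leading genes of the pathway lists under alternatives, 229 kept their direction and side of the threshold. Of 397 values of the 25 named histone genes, 387 moved by less than the spread between replicates, and 33 values in 11 of these genes changed sign, none of a gene past the threshold. Depth limits most members, since 42 of 68 genes had fewer than 50 reads in all 7 libraries together.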
